A study of Mus musculus with 32 samples.

Results

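Ribosome footprints, the pieces of mRNA that a translating ribosome protects, were counted in neural stem cells (NSCs) treated with the type-I interferon IFN-β, and 33 genes stood out by their timing. Their footprints were clearly higher after 14 h of IFN-β and had barely moved after 2 h, so they are called late-only genes here. They were chosen by size alone. Counts of footprints in the coding sequence (CDS) were divided by the library total and brought to a common total of 1000000 (CPM), and the log2 ratio of the IFN-β mean over the control mean was taken with 0.5 CPM added to both. A gene was kept when this ratio was 1.5 or more at 14 h and between -0.3 and 0.3 at 2 h, with a mean of 50 or more footprints per library at 14 h. Genes of MHC class I, complement and the proteasome were left out by symbol, which removed 2. The rule left 33 of 23035 genes in the tables, and of the 10258 genes with 50 or more footprints 235 reached 1.5 at 14 h. Another 115 genes reached 1.5 at both times and serve for comparison. They are not close to the late-only genes in size or level. Their median 14 h ratio was 5.68 against 1.76, and their median control level at 14 h was 1.26 against 10.3 CPM.

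The cells were NSCs from the ventricular-subventricular zone (vSVZ) of male C57BL/6 mice of 8 to 12 weeks, grown ex vivo with EGF and FGF. Control cultures received the carrier of the cytokine and the others received IFN-β, for 2 h or for 14 h, followed by a short exposure to cycloheximide in all groups. Each of the 4 groups held 4 cultures, from different mice, and each culture gave a footprint library and a total RNA library of the same lysate, 32 libraries in all. Footprint libraries held 2956297 to 10505108 counts, total RNA libraries 3992402 to 7877753 at 2 h and 1370008 to 2737111 at 14 h. Values of single cultures are given below in the order of their numbers, 1 to 4 at 14 h and 2, 3, 5 and 6 at 2 h. Whether a number shared by the 2 exposures marks the same mouse is not given in the sources used here. NSC markers summed to 10670 to 17476 CPM in every footprint library. Culture 3 at 2 h stood apart in both of its footprint libraries, with astrocyte markers summing to 3501 CPM in control and 3496 CPM with IFN-β, where the medians of these groups were 2084 and 1989 CPM. Total RNA of control culture 3 at 14 h and of control culture 5 at 2 h had edgeR scaling factors (TMM) of 0.489 and 0.414, where the others lay between 1.02 and 1.29. In bulk cultures, fewer cells of a type and less RNA per cell cannot be told apart.

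Type-I interferons bind a receptor at the cell surface and signal through JAK kinases to the nucleus. The DNA elements known from this response are the interferon-stimulated response element (ISRE) and the gamma-activated site (GAS). Classical interferon-stimulated genes carry such elements close to their start and respond quickly, and later changes can follow from proteins made in the first wave. None of the late-only genes is on a list of 38 core antiviral genes. By their known roles 9 belong to neuronal or secretory granule biology, 7 are receptors and other proteins of the cell surface and 6 are secreted. Another 5 are grouped under lipid, sugar or vesicle transport, although Asah2 among them is an enzyme and Itm2b a membrane protein. The other 6 are regulators within the cell or, in a single case, a pseudogene.

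The promoters of these genes were searched for the motifs of this pathway, beside those of the genes that rose at both times. RefSeq promoters of GRCm38.p6, 250 bases before to 50 bases after each start, were found for 26 of the 33 late-only genes (35 promoters) and for 84 of the 115 genes at 1.5 or more at both times. No promoter was matched for Pla1a, Capn5, Ssc5d, Rarres2, Lynx1, Cd248 and Gm5424. The ISRE core (GAAA, any 2 bases, GAAA), searched on both strands, was in the promoter of 1 of 26 late-only genes (3.85%), of 41 of the 84 genes that rose at both times (48.8%) and of 1079 of 27025 genes in all (3.99%). The GAS form TTCNNNGAA was found for 3 late-only genes (11.5%), 18 genes of the other group (21.4%) and 9.55% of all genes. A kappa B form (GGG, any 2 bases, TTTCC) was found for 1 late-only gene (3.85%), against 3.57% and 1.89%, and a C/EBP form, TTGCNNAA, for 2 (7.69%), against 8.33% and 12.2%. These are counts of letters in a short window. They show no bound factor, a motif absent from the window may lie elsewhere, and no test was made, since both groups were chosen by their footprints.

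Windows of 30 bases are shown for the late-only genes with an ISRE or GAS match, the motif in capitals, written along the gene, so that each can be set beside the ISRE windows of Ifit1, Ifit3 and Oas1a. These are from the 4 core antiviral genes with the largest 14 h change and a RefSeq promoter, and the other, Oasl2, had no match. Ifit1 and Ifit3 rose at both times, and Oas1a rose at 14 h and had too few footprints at 2 h to be tested. The ISRE match of Slc2a12, a glucose transporter, begins 11 bases after its start (chr10:22645011-22645040, plus strand). The GAS matches begin 47 bases before a RefSeq start of Gimap8 (chr6:48647304-48647333, plus strand), 83 before one of Anks1b (chr10:90575634-90575663, plus strand) and 138 before one of Asah2 (chr19:32103259-32103288, minus strand). The last 2 starts lie well inside the annotated genes, which span 89873509 to 90973300 for Anks1b and 31982597 to 32108211 for Asah2. Whether these starts are used in NSCs was not tested. The matches shown for the antiviral genes begin 104 bases before the start of Ifit1 (chr19:34640775-34640804, plus strand), 156 before that of Ifit3 (chr19:34583363-34583392, plus strand) and 20 before that of Oas1a (chr5:120907526-120907555, minus strand). Each of these genes has a second match, 85 bases before the start of Ifit1, 122 before that of Ifit3 and 14 before that of Oas1a. The second matches are not marked, and that of Oas1a overlaps the first, so that its last bases stand in lower case. In Ifit1 and Ifit3 the core lies on the other strand, so that its capitals read TTTC, 2 bases, TTTC.
Slc2a12, ISRE: aaagccttcgGAAATAGAAAcaaagttggt
Gimap8, GAS: aacctctttcTTCCTAGAAacatttggaaa
Anks1b, GAS: gatggtagtcTTCCTGGAAcacagggcaag
Asah2, GAS: aggtgttaccTTCCAAGAAtggtacaagtg
Ifit1, ISRE: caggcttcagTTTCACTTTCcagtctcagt
Ifit3, ISRE: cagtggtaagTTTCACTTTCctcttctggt
Oas1a, ISRE: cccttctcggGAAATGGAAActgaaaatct

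**Figure D1:**
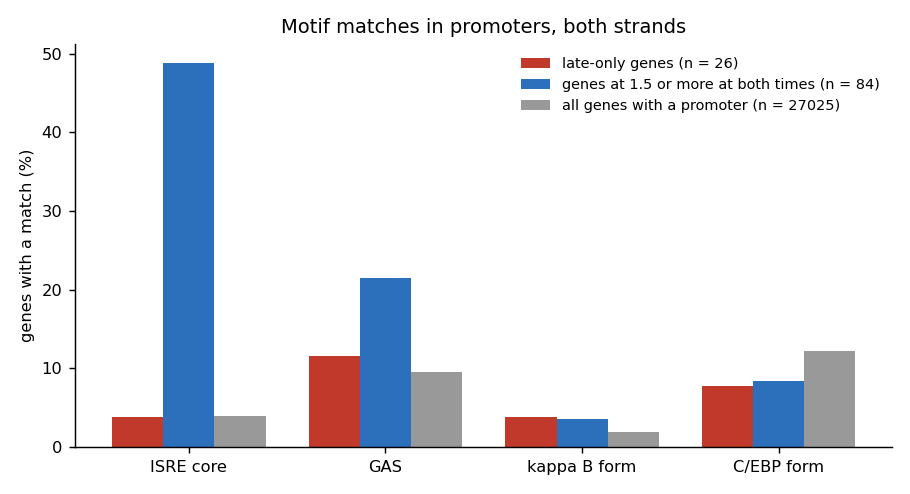
Share of genes (%) with at least 1 match of each motif on either strand of a 300-base promoter, for 26 late-only genes, 84 genes at 1.5 or more at both times and 27025 genes in all. The ISRE core was in 3.85%, 48.8% and 3.99% of them.

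The 14 h ratios of the late-only genes ran from 1.5 to 5.18, with a median of 1.76, and their 2 h ratios from -0.28 to 0.29, with a median of -0.04. The genes that rose at both times had medians of 5.68 at 14 h and 3.38 at 2 h, and over all genes with 50 or more footprints the medians were -0.02 and -0.05. All these values chose the genes and are given as a description. In all 33 the 4 IFN-β libraries lay above the 4 control libraries at 14 h, as in 21.6% of the genes tested. At 2 h the groups overlapped in 31, lay apart upwards in Pttg1 and downwards in Nmnat2, beside 6.77% and 6.97% of all genes. edgeR called all 33 higher at 14 h, where 26.2% of genes were, and none of the 32 tested at 2 h, where it called 7.25% of genes, 5.25% higher and 2.01% lower (at an unadjusted p under 0.05 it had Olfml2b and Pttg1, and 2100 genes in all; DESeq2 also called none). Islr and Pla1a held under 10 footprints in every control library at 14 h, so that they could be tested there only through the IFN-β libraries. Same-numbered footprint libraries deviated together, and with the culture number as a block edgeR called 7 of the 32 at 2 h, beside 29.2% of all genes. These were Abca1, Fyco1, Olfml2b, Pttg1 and Trafd1 higher and Nmnat2 and Olfm1 lower, all within the limits of the rule, so that "late-only" describes the size of the change and not its absence at 2 h.

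**Figure D2:**
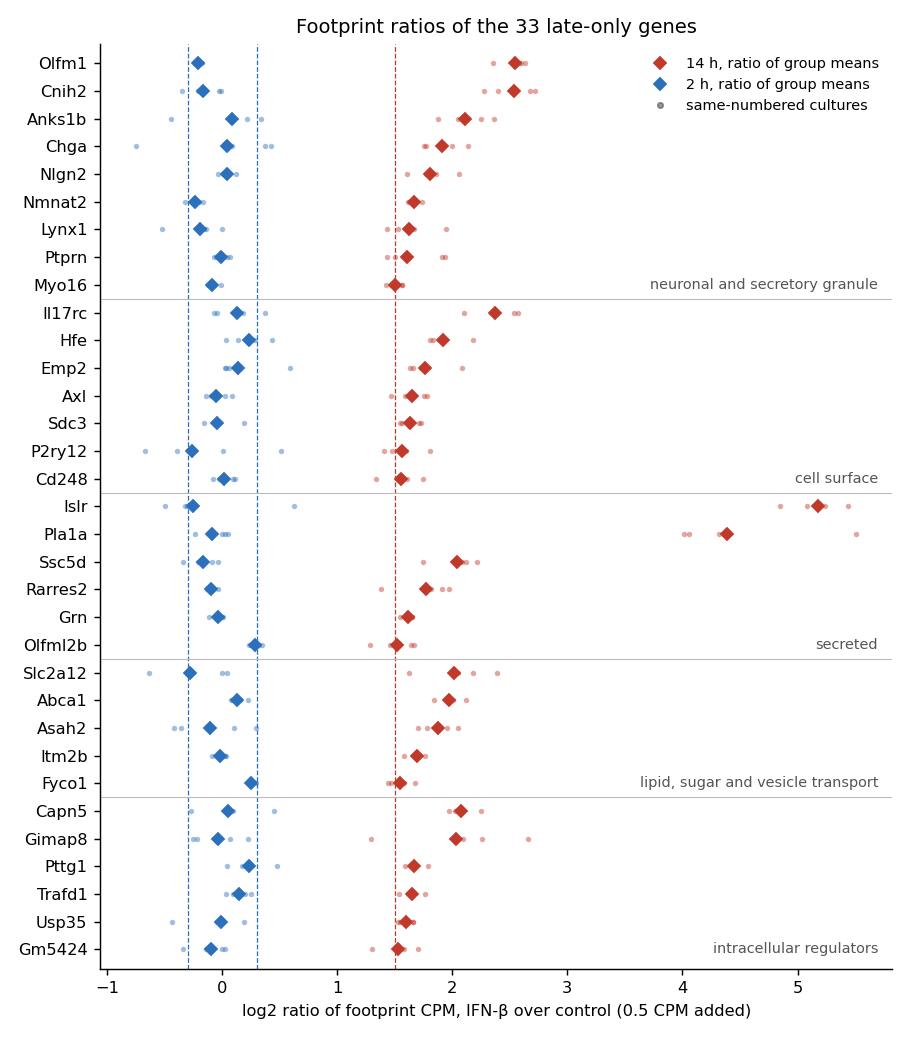
Log2 ratio of footprint CPM, IFN-β over control, for the 33 late-only genes by role, at 14 h (red) and 2 h (blue). Diamonds are ratios of the group means, dots those of same-numbered cultures, and dashed lines the limits of the rule (1.5 at 14 h, -0.3 and 0.3 at 2 h). Islr and Pla1a stand apart at 5.18 and 4.39.

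The neuronal and secretory granule genes had a median 14 h ratio of 1.81 and 2 h ratios of -0.23 to 0.09. Olfm1 encodes olfactomedin 1, a secreted glycoprotein of neurons that binds the AMPA receptor complex. Its control libraries at 14 h held 55.9, 55.1, 50.8 and 56.9 CPM. With IFN-β they held 287, 343, 310.5 and 343 CPM, a 5.83-fold higher mean. The IFN-β cultures were alike and far above control, whereas at 2 h the groups overlapped, at 57.5 to 76.9 CPM in control and 49.0 to 65.2 CPM with IFN-β. Each treated culture lay below its own control there, by log2 ratios of -0.24 to -0.18.

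Cnih2, cornichon 2, is an auxiliary subunit of AMPA receptors. It held 10.6, 10.0, 10.6 and 8.85 CPM in control at 14 h and 72.7, 66.8, 53.2 and 48.8 CPM with IFN-β. The lowest treated culture was thus more than 4 times the highest control, a 5.78-fold ratio of means. At 2 h both groups lay between 7.51 and 12.0 CPM. Anks1b, a postsynaptic scaffold protein, went from 6.89, 9.21, 10.7 and 7.33 CPM to 37.5, 39.6, 40.7 and 36.7 CPM. Its treated cultures differed little, and at 2 h culture 3 was the highest of either group, with 15.2 CPM in control and 17.8 CPM with IFN-β.

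Nlgn2, a postsynaptic adhesion protein of inhibitory synapses, held 50.3, 34.1, 38.0 and 31.4 CPM in control and 154, 144, 131 and 115 CPM with IFN-β at 14 h. Nmnat2, which makes NAD in axons, held 28.5, 26.4, 30.4 and 35.1 CPM and 89.3, 89.0, 98.8 and 109 CPM. Myo16, an unconventional myosin of neurons, held 70.8, 64.4, 61.8 and 68.3 CPM and 197, 191, 183 and 184 CPM, which places it just inside the 14 h limit. In none of these 3 did the groups touch at 14 h. At 2 h the Nmnat2 libraries held 43.6, 46.8, 44.6 and 39.2 CPM in control and 38.7, 39.1, 38.8 and 31.2 CPM with IFN-β, so that all treated cultures lay below all controls, by a ratio of -0.23.

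Lynx1, a membrane-anchored modulator of nicotinic receptors, rose from 17.1, 20.3, 22.0 and 29.3 CPM to 67.3, 65.2, 64.3 and 80.0 CPM at 14 h. Chga, the granule protein chromogranin A, lay at 5.40 to 7.87 CPM in control and 23.0 to 30.6 CPM with IFN-β. Both genes were apart at 14 h, and Chga overlapped at 2 h. Ptprn, a phosphatase-like protein of dense-core granules, had a ratio of 1.60. Its control libraries held 9.69, 10.2, 23.2 and 32.7 CPM and those with IFN-β 37.9, 40.4, 66.8 and 89.1 CPM, with cultures 3 and 4 the highest in both groups, so that the same cultures were high with and without IFN-β. Markers of neuroblasts and neurons summed to 77.3 to 81.9 CPM in control and 82.2 to 94.4 CPM with IFN-β at 14 h. Most of this was Tubb3, with medians of 48.1 and 56.3 CPM. Sp9 had 5.77 and 9.52 CPM and Gad1 5.51 and 6.23 CPM. Stmn2 had 4.95 and 2.63 CPM, Snap25 3.175 and 2.04 CPM and Nrxn3 7.33 and 7.20 CPM. The others held at most 2.13 CPM, and the part of such cells in these values was not tested.

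Receptors and other surface proteins had 14 h ratios of 1.55 to 2.37. Il17rc, a subunit of the IL-17 receptor, was near the count minimum, with 10, 31, 18 and 17 footprints in the control libraries and 40, 104, 92 and 111 with IFN-β. In CPM this was 1.86, 3.14, 2.25 and 1.62 against 13.5, 15.1, 13.6 and 11.8, a 5.16-fold ratio. The groups were apart at 14 h and lay between 1.45 and 3.23 CPM at 2 h. Hfe, an MHC class I-like protein that regulates iron uptake, held 5.78, 5.47, 4.37 and 5.81 CPM in control and 22.7, 20.7, 21.6 and 21.5 CPM with IFN-β, with little spread in either group.

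Sdc3, a heparan sulphate proteoglycan of neural cells, was among the most abundant late-only genes. It held 221, 188, 231 and 195 CPM in control at 14 h and 644, 616, 681 and 646 CPM with IFN-β. At 2 h it held 249, 606, 377 and 398 CPM in control and 283, 578, 360.3 and 356 CPM with IFN-β, so that culture 3 stood above the others in both groups and control at 14 h lay below all libraries of 2 h. Axl, a TAM receptor tyrosine kinase that limits interferon responses, showed the same arrangement. Its 14 h libraries held 9.13, 8.10, 8.24 and 8.57 CPM in control and 26.0, 29.0, 25.8 and 30.1 CPM with IFN-β, and its 2 h libraries 9.51, 39.8, 14.6 and 15.7 CPM and 9.67, 37.1, 15.6 and 14.2 CPM. Emp2, a tetraspan membrane protein, held 6.52, 7.09, 6.50 and 4.66 CPM and 21.3, 24.6, 21.6 and 21.4 CPM at 14 h.

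P2ry12, the ADP receptor known as a marker of microglia, was low. It held 46, 83, 45 and 77 footprints in control at 14 h and 73, 182, 141 and 190 with IFN-β, which is 8.57, 8.40, 5.62 and 7.33 CPM against 24.7, 26.4, 20.9 and 20.2 CPM. The groups did not overlap, at a 2.95-fold ratio, whereas at 2 h all libraries lay between 0.563 and 4.38 CPM. The other markers on a list of 17 for microglia and macrophages summed to 85.0 to 95.8 CPM in control and 269 to 352 CPM with IFN-β at 14 h, of which Mpeg1 alone gave 0 to 0.250 CPM and 174 to 264 CPM. Aif1, Cx3cr1, C1qa, C1qc and Tyrobp, which define these cells, had no footprint in any IFN-β library at 14 h. Cd248, endosialin, is known from pericytes and fibroblasts. It held 34.7, 34.1, 34.8 and 40.3 CPM and 107, 115, 101 and 102 CPM, beside a list of 10 mural and fibroblast markers that summed to 170 to 210 CPM in control and 176 to 207 CPM with IFN-β. That sum was nearly all Cspg4, which oligodendrocyte precursors also express, at 157 to 198 CPM in control and 166 to 199 CPM with IFN-β. Acta2 held 7.10 to 17.9 CPM, the 8 others were at or near 0, and the part of such cells was not tested.

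Secreted proteins gave the largest ratios. Islr, a secreted protein with immunoglobulin and leucine-rich repeats known from mesenchymal cells, had 2, 4, 4 and 5 footprints in the control libraries at 14 h and 86, 176, 251 and 394 with IFN-β. In CPM control was 0.373, 0.405, 0.500 and 0.476 and IFN-β 29.1, 25.5, 37.2 and 41.9. Treated cultures were thus far above control, at 36.1-fold, but a ratio against so few counts depends on the 0.5 CPM added. At 2 h Islr was not as low: control held 2.14, 19.5, 6.39 and 3.30 CPM and IFN-β 3.55, 15.5, 4.37 and 2.58 CPM, with culture 3 far above the rest in both. Pla1a, a phospholipase that makes lysophosphatidylserine, had 4, 0, 5 and 9 footprints in control and 72, 154, 119 and 208 with IFN-β at 14 h, or 24.4, 22.3, 17.6 and 22.1 CPM. At most 1.39 CPM was seen in any library of 2 h, so Pla1a was close to undetected everywhere but after 14 h of IFN-β.

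Rarres2 encodes chemerin, a chemoattractant for immune cells that express CMKLR1. It held 11.0, 7.59, 8.87 and 13.9 CPM in control at 14 h and 29.4, 31.3, 34.8 and 50.0 CPM with IFN-β, with no overlap. At 2 h, however, control held 31.3, 44.3, 42.6 and 38.1 CPM and IFN-β 29.5, 40.4, 39.2 and 37.2 CPM, which is the range of the treated cultures at 14 h. Rarres2 is also on the list of 7 ependymal markers, whose other genes summed to 23.1 to 30.3 CPM in control and 51.5 to 67.7 CPM with IFN-β at 14 h. Most of this was Foxj1, at 16.9 to 23.5 CPM in control and 41.8 to 57.2 CPM with IFN-β. Dynlrb2 held 4.66 to 6.09 CPM and 8.08 to 9.13 CPM. Ccdc153 and Dnah11 held at most 1.35 CPM at 14 h. Tmem212 and Pifo of that list were at 0 in both groups, and the part of such cells was not tested.

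Ssc5d, a soluble scavenger receptor, followed Rarres2. Its 14 h libraries held 7.83, 10.5, 11.1 and 11.6 CPM in control and 38.2, 36.5, 49.9 and 50.9 CPM with IFN-β, and its 2 h controls 26.8, 70.6, 42.1 and 30.5 CPM. Treated cultures at 14 h therefore fell within the range of control at 2 h. Grn encodes progranulin, a secreted and lysosomal growth factor whose loss causes a neurodegenerative disease. It was steady between cultures, with 298, 287, 279 and 293 CPM in control and 870.3, 874, 874 and 919.7 CPM with IFN-β at 14 h. Olfml2b, an extracellular matrix protein, held 22.0, 16.6, 23.6 and 23.0 CPM and 54.1, 52.9, 65.9 and 74.2 CPM at 14 h. It is the gene closest to the upper 2 h limit, at 0.29, and each treated culture lay above its own control at 2 h.

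The genes grouped under lipid, sugar and vesicle transport had a median 14 h ratio of 1.88. Abca1 exports cholesterol to apolipoproteins and is known as a target of liver X receptors. Control held 107, 86.9, 91.9 and 127 CPM at 14 h and IFN-β 432, 341, 400.2 and 454 CPM. At 2 h the libraries held 269, 1121, 414 and 312 CPM in control and 300.0, 1195, 485 and 329 CPM with IFN-β. The 14 h groups were well apart, but the treated libraries reached only the range of 2 h, where culture 3 was the highest in both groups.

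Asah2, a neutral ceramidase, held 6.89, 7.29, 6.99 and 7.33 CPM and 28.1, 31.7, 23.8 and 26.4 CPM at 14 h. Slc2a12 lay closest to the count minimum, with 10, 25, 32 and 22 footprints in control and 35, 83, 90 and 106 with IFN-β, or 1.86, 2.53, 4.00 and 2.09 CPM and 11.8, 12.0, 13.3 and 11.3 CPM. Its groups did not overlap at 14 h, and it was kept by the rule in only 9 of the 16 settings that each left out 1 library.

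Itm2b, an integral membrane protein that binds the amyloid precursor protein, was the most abundant late-only gene per CDS length, at 710 ± 16.9 CPM per kb in control and 2294 ± 97.6 CPM per kb with IFN-β at 14 h (SD, n = 4). Its libraries held 585, 552, 571 and 568 CPM in control and 1746, 1809.6, 1867 and 1928 CPM with IFN-β. At 2 h it held 804 to 1500.2 CPM in control, between the groups of 14 h. Fyco1, an adaptor that moves autophagosomes and late endosomes along microtubules, held 32.2, 29.5, 31.6 and 33.1 CPM in control and 90.0, 95.4, 86.8 and 100.2 CPM with IFN-β at 14 h. At 2 h each of its treated cultures exceeded its own control, at a ratio of 0.25.

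Regulators within the cell completed the genes. Trafd1 is a TRAF-type zinc finger protein that restrains innate immune signalling. Control held 40.8, 40.8, 43.3 and 41.8 CPM and IFN-β 119, 128, 138 and 143 CPM at 14 h. Pttg1, securin, which guards sister chromatids until anaphase, held 44.4, 43.3, 49.1 and 47.4 CPM and 139.7, 151, 148 and 149 CPM, with very little spread between cultures. It had moved in the same direction by 2 h, from 46.1, 44.6, 43.0 and 47.3 CPM to 51.9, 62.1, 49.7 and 48.8 CPM, with no overlap.

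Capn5, a calpain protease, held 9.50, 7.19, 7.49 and 7.04 CPM in control and 40.3, 29.6, 32.6 and 35.3 CPM with IFN-β. Gimap8, an immune-associated GTPase, was low and more scattered, with 3.35, 2.23, 5.37 and 4.57 CPM and 17.9, 16.7, 13.9 and 21.2 CPM. The treated cultures of both lay above all controls. Usp35, a deubiquitinase, lay at 6.62 to 8.30 CPM and 21.6 to 26.4 CPM. Gm5424 lay at 5.87 to 7.81 CPM and 18.5 to 26.5 CPM. Gm5424 is annotated as a processed pseudogene, a class whose reads can be shared with the parent gene, so its value is uncertain.

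**Figure D3:**
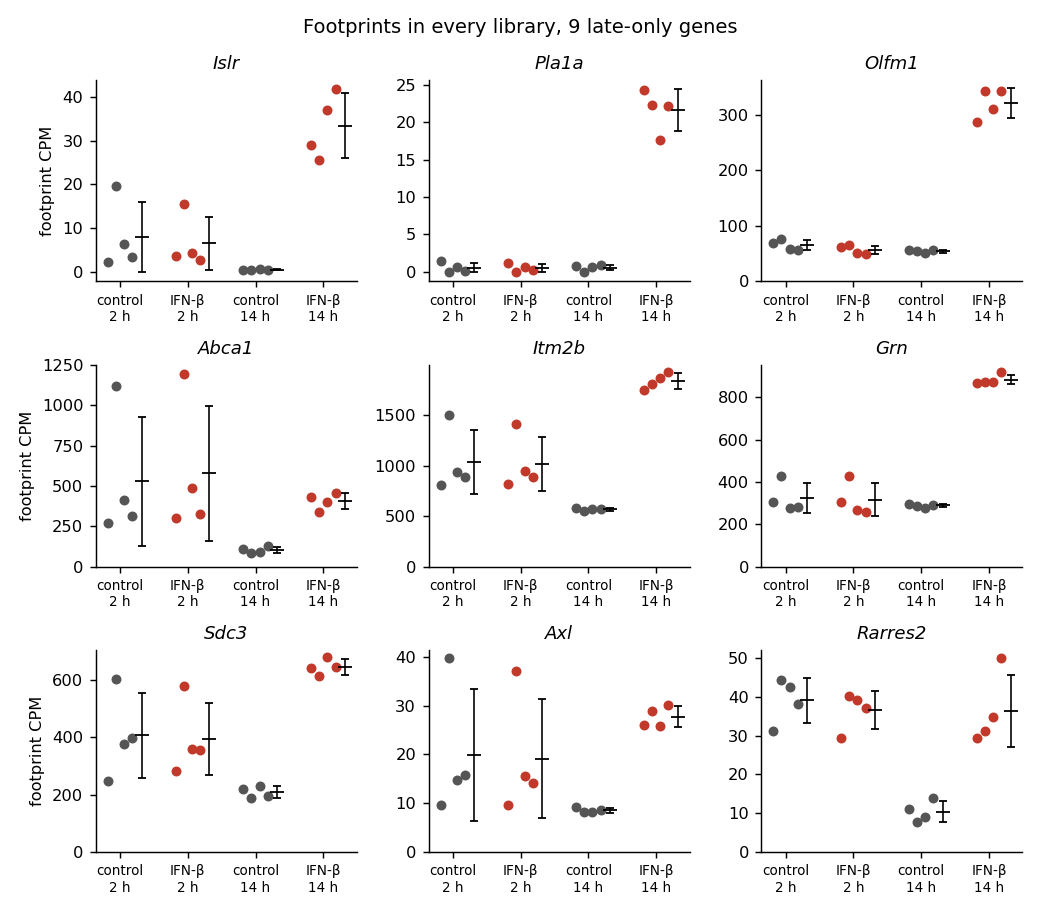
Footprint CPM in every library for 9 late-only genes in control (grey) and IFN-β (red) cultures at 2 h and 14 h, each axis starting at or just below 0. Points are libraries in the order of culture numbers, bars the mean ± SD (n = 4). Olfm1, Grn and Pla1a rise above all other libraries at 14 h of IFN-β, whereas Abca1 and Rarres2 reach only the range seen at 2 h.

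Control cultures did not hold these genes at the same level at the 2 times. The 2 tables were counted separately and the control values are part of the rule, so this is a description with no test. Control at 14 h was below control at 2 h in 26 of the 33, by a median log2 ratio of -0.47, where the median of all genes with 50 or more footprints was 0.06. In 7 of them, Islr, Abca1, Ssc5d, Rarres2, Axl, Slc2a12 and Ptprn, the log2 ratio was under -1, as in 2.65% of all genes. Abca1 controls fell from 529 ± 399 CPM at 2 h to 103 ± 17.8 CPM at 14 h, and Rarres2 controls from 39.1 ± 5.81 to 10.3 ± 2.76 CPM (mean ± SD, n = 4). P2ry12 ran the other way, from 2.62 ± 1.57 to 7.48 ± 1.36 CPM.

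In 27 late-only genes all 4 IFN-β libraries at 14 h exceeded the 12 other footprint libraries, beside 10.6% of all genes with 50 or more footprints. The 6 that did not were Abca1, Axl, Olfml2b, Ptprn, Rarres2 and Ssc5d. By role they are 3 of the 6 secreted proteins and 1 each of the surface, transport and neuronal genes. Only in Abca1 and Rarres2 was the IFN-β mean at 14 h below the control mean at 2 h, as in 49.1% of all genes. Without culture 3 at 2 h the median log2 ratio of the controls was -0.24, 5 genes remained under -1, and Rarres2 was the 1 gene whose IFN-β mean at 14 h lay below the control mean at 2 h. Astrocyte markers summed to 1811 to 3501 CPM in control at 2 h, 955 to 1091 CPM in control at 14 h and 1355 to 1573 CPM with IFN-β at 14 h. Most of this was Aldh1l1, with medians of 1590, 506 and 984 CPM in these groups. Slc1a2 had 136, 81.5 and 123 CPM, Aqp4 9.56, 0.68 and 1.43 CPM and Gfap 4.23, 0.19 and 1.17 CPM. Gja1 had 225, 254 and 160 CPM, Aldoc 117, 131 and 132 CPM and S100b 3.67, 12.9 and 10.2 CPM. Gjb6 was at or near 0. The part of astrocytes in these levels was not tested.

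**Figure D4:**
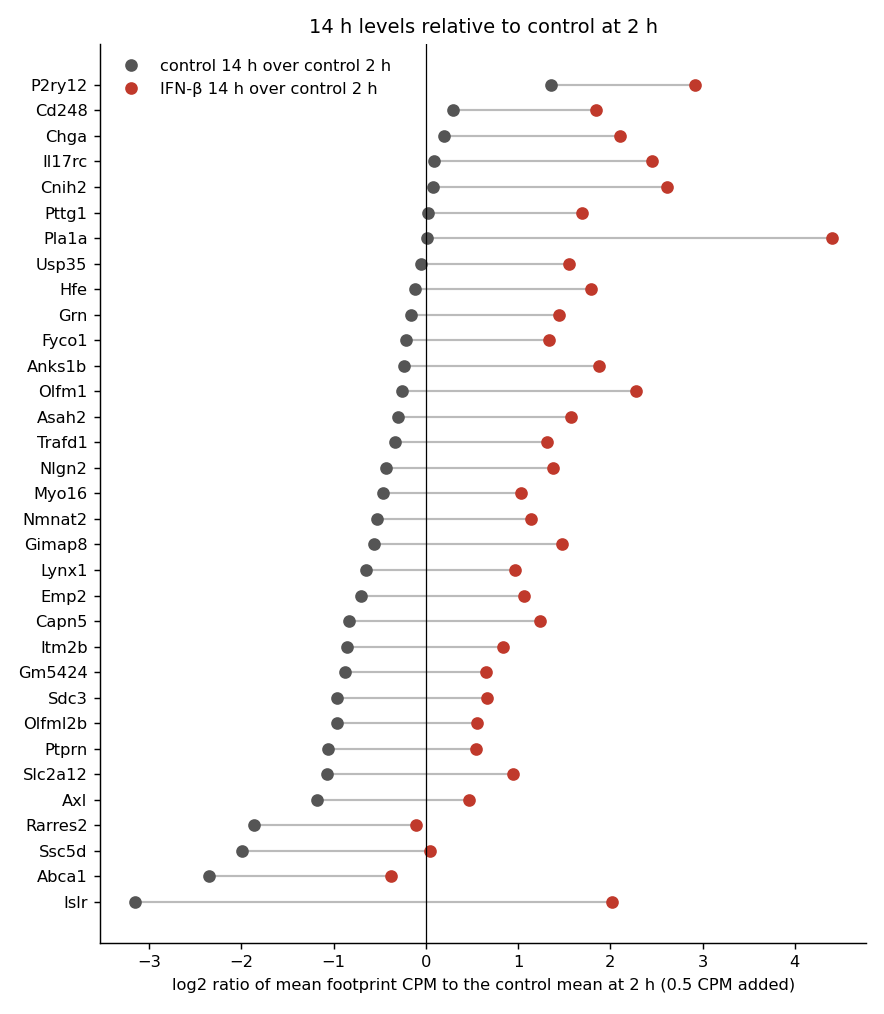
Log2 ratio of mean footprint CPM at 14 h to the control mean at 2 h for the 33 late-only genes, control in grey and IFN-β in red, in order of the control ratio. In 26 genes the 14 h control lies left of 0, and in Abca1 and Rarres2 the IFN-β point does too.

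Total RNA did not enter the rule, so it could be tested. All 33 genes are in the total RNA tables, but with few counts, a median of 6.75 per library at 14 h and 14.1 at 2 h, against 192 and 217 footprints. Itm2b, with a mean of 8439 footprints, had 0, 0, 0 and 4 total RNA counts in control and 3, 2, 6 and 6 with IFN-β at 14 h. Genes with 10 or more counts in at least 4 of the 8 libraries were tested, which 13 of the 33 were at 14 h and 19 at 2 h. edgeR, with p adjusted over all genes, called 3 at 14 h, 2 higher (Sdc3, and Fyco1, which reached 10 counts in the IFN-β libraries alone) and 1 lower, beside 6.3% of all genes (3.47% higher, 2.83% lower), and 1 higher at 2 h, beside 0.799% (0.722% higher, 0.0773% lower). The median log2 fold change of the 13 was 0.05 (all genes -0.01) and that of the 19 at 2 h 0.14 (all genes 0.04). Without the filter all 33 entered and 5 were called at 14 h, with Abca1 and Lynx1 added. Over all 33, the groups lay apart upwards in Fyco1, Rarres2 and Sdc3 at 14 h and in Fyco1 and Trafd1 at 2 h, and downwards in none. Among genes with enough counts to be tested, 6.22% and 2.87% lay apart upwards and 1.05% and 0.0516% downwards. The shares are not over like genes, since only 13 and 19 of the 33 had enough counts. These counts therefore do not show whether RNA of most late-only genes rose. The paper lists the 300 genes most significantly raised by late IFN-β in its transcriptomic libraries, mapped and counted with another program. This list holds 24 of the 33 late-only genes (72.7%) and 105 of the 115 genes that rose at both times. How many of all 23035 genes counted in footprints are on it was not determined. The list and both groups were chosen by their rise with IFN-β in the same study, so the overlap is a description. Sdc3 is on it, and Fyco1 and P2ry12 are not. Why the list and these counts differ was not tested.

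The total RNA counted for Sdc3 rose, and whether these counts come from Sdc3 or from the other strand was not tested. Sdc3 had 47, 41, 19 and 54 counts in control and 159, 167, 220 and 221 with IFN-β at 14 h, a difference of 1.78 on the log2 scale (standard error, SE, 0.25, edgeR's adjusted p = 0.000188). No treated library overlapped control. At 2 h its change was 1.05 (SE 0.30, edgeR's adjusted p = 0.225). The total RNA counted for Fyco1, whose strand was not tested either, was 7, 9, 3 and 4 and 31, 29, 21 and 26 counts at 14 h, a change of 1.74 (SE 0.36, edgeR's adjusted p = 0.00741). All its treated libraries lay above control. Every control library held under 10 counts of Fyco1, so that it could be tested only through the IFN-β libraries and in none of the 4 fits that left out 1 of these.

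Fyco1 was also the single late-only gene called in total RNA at 2 h, where 0.722% of genes were called higher. It had 10, 22, 5 and 11 counts in control and 43, 56, 36 and 34 with IFN-β there, a change of 1.69 (SE 0.32, edgeR's adjusted p = 0.0280). Its footprints had a log2 ratio of 0.25 at 2 h. The call was lost with the culture number as a block (edgeR's adjusted p = 0.0549) and in 7 of the 8 fits that left out 1 library, all but that without control culture 3 (adjusted p from 0.0148 to 0.139 in edgeR).

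P2ry12 went against its footprints. The total RNA counted for it fell by 1.03 on the log2 scale at 14 h (SE 0.23, edgeR's adjusted p = 0.0130), from 183, 212, 34 and 159 counts to 98, 121, 103 and 66. Footprints of the same cultures had risen, and the call was lost without IFN-β culture 1, 3 or 4 and with total counts in place of TMM scaling. Whether these counts come from P2ry12 or from Med12l on the other strand was not tested. Of the others tested at 14 h, Rarres2 had a change of 0.59 (edgeR's adjusted p = 0.0969, DESeq2's 0.0451) and Lynx1 one of 1.39 (edgeR's adjusted p = 0.105). With the culture number as a block Lynx1 rose by 1.52 (edgeR's adjusted p = 0.0259) and was a further call, 4 in all. The change at 14 h was not shown to differ from that at 2 h for any of 21 late-only genes in a test of the interaction of time and treatment, chosen after the data were seen (edgeR, 0.639% of all genes called; 0 late-only genes at an unadjusted p under 0.05).

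The library kit for total RNA keeps the strand, and the strand setting of the counting is not given in the sources used here. Genes annotated on the other strand were therefore followed too. GENCODE M21 places an exon of another gene over an exon of 8 late-only genes. For Cnih2, Slc2a12, Rarres2, Sdc3, Grn and P2ry12 such a gene is in the total RNA table, 7 in all with 2 opposite Sdc3. Of the 6 with enough counts at 14 h, edgeR called 5 higher, where 3.47% of all genes were, and none of the 7 at 2 h (0 at an unadjusted p under 0.05 and 0 with DESeq2).

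Lrrc61, a leucine-rich repeat protein gene (chromosome 6, 48554796 to 48570722, plus strand), shares 892 bp of exon with Rarres2. Its total RNA was 53, 10, 8 and 52 counts in control at 14 h and 219, 161, 287 and 157 with IFN-β, which differ by 2.36 on the log2 scale (SE 0.32, edgeR's adjusted p = 0.000141). In CPM it read 88.0, 106, 39.2 and 127 in control at 2 h, 21.7, 5.47, 5.84 and 27.3 in control at 14 h and 83.5, 58.8, 111 and 81.2 with IFN-β at 14 h. These CPM are by library total, without TMM scaling. Footprints of Lrrc61 at 14 h lay at 11.2 to 12.1 CPM in control and 11.5 to 17.1 CPM with IFN-β (0.34, edgeR's adjusted p = 0.0454). Whether the total RNA counts come from Lrrc61 or from Rarres2 on the other strand was not tested.

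Yif1a, a gene of ER to Golgi transport (chromosome 19, 5088538 to 5092881, plus strand), shares 14 bp of exon with Cnih2. It had 64, 43, 24 and 69 total RNA counts in control and 312, 325, 329 and 342 with IFN-β at 14 h, a change of 2.23 (SE 0.23, edgeR's adjusted p = 6.04e-06). Control and treated libraries were far apart, and footprints of Yif1a rose by 0.28 (edgeR's adjusted p = 0.00892). The total RNA counted for Cnih2 itself was 31, 13, 12 and 29 and 38, 32, 41 and 33, a change of 0.29 (edgeR's adjusted p = 0.621).

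Opposite Sdc3 lie the noncoding genes Gm26716 (chromosome 4, 130824394 to 130826313, minus strand, 415 bp of shared exon) and Gm12970. Gm26716 had 7557, 5970, 1990 and 6086 total RNA counts in control and 20392, 21787, 21189 and 20208 with IFN-β at 14 h. It rose by 1.498 (SE 0.23, edgeR's adjusted p = 0.000453), Gm12970 by 1.44 (adjusted p = 0.0153), and at 2 h they had changes of 0.19 and 0.42. Med12l, opposite P2ry12, rose by 0.75 (SE 0.20, edgeR's adjusted p = 0.0371), with 85, 79, 16 and 94 and 171, 174, 145 and 121 counts, while its footprints fell by 0.47. This call was lost in 6 of the 8 fits without 1 library, and that of Gm12970 without control culture 4.

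Tbpl1, which shares 407 bp with Slc2a12, had a change of -0.30 at 14 h (edgeR's adjusted p = 0.693). Fam171a2, opposite Grn, had too few counts at 14 h. With genes that overlap a late-only gene without sharing an exon, 6 of 7 were called at 14 h, the addition being Gm16938 opposite Capn5, at 1.40 (edgeR's adjusted p = 0.00848). Only for Lrrc61 did the test of the difference between the times pass, at 2.42 (SE 0.41, edgeR's adjusted p = 0.00482). It missed for Yif1a (2.13, adjusted p = 0.0757), Gm26716 (1.38, adjusted p = 0.189) and Gm16938 (1.52, adjusted p = 0.142). Which strand these counts come from was not tested.

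**Figure D5:**
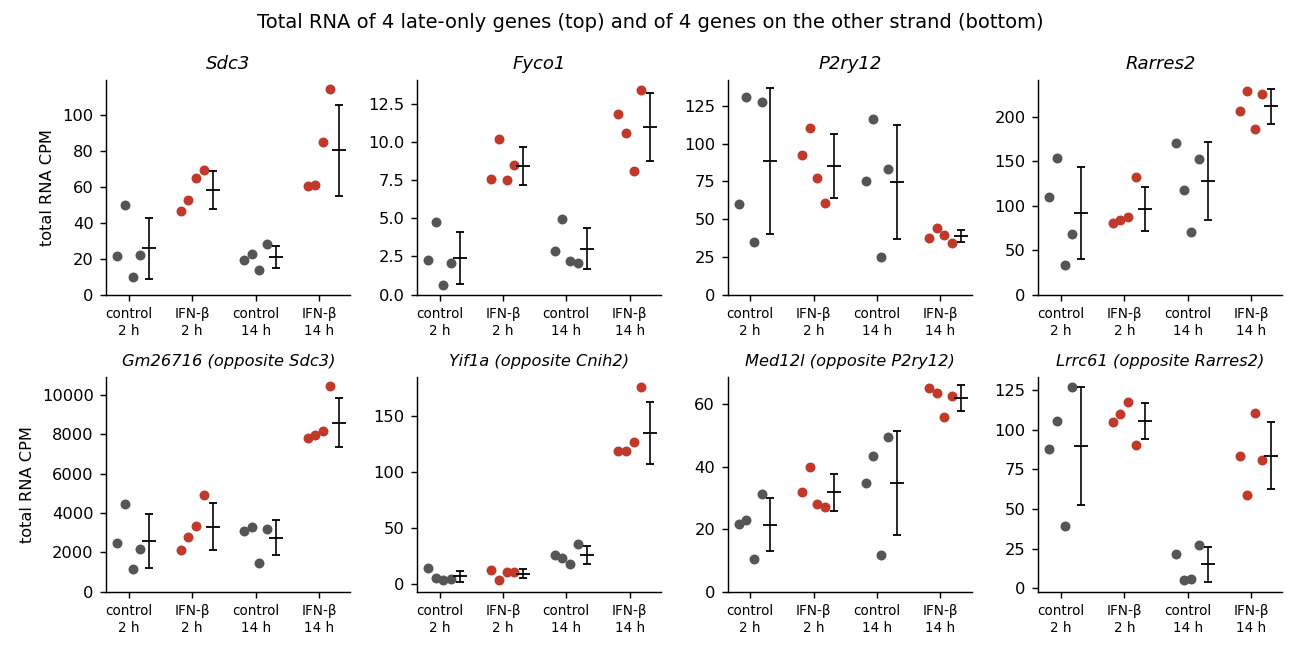
Total RNA CPM in every library for 4 late-only genes (top) and 4 genes on the opposite strand of late-only genes (bottom), control in grey and IFN-β in red, with the mean ± SD (n = 4) as bars. Gm26716, Yif1a and Lrrc61 are higher in all IFN-β libraries at 14 h than in control and overlap control at 2 h.

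Gene lists show what moved around the late-only genes in footprints. Their genes were chosen with earlier results of these data known, and late-only genes are not counted among them. Of 24 other lysosome and antigen loading genes tested, 22 were higher and none lower at 14 h (median 0.51 on the log2 scale), beside 26.2% higher among all genes. At 2 h 1 of 23 was higher (median -0.03). Tmem106a rose by 5.02 (edgeR's adjusted p = 1.27e-10) and Tcirg1, a subunit of the proton pump, by 4.58 (adjusted p = 5.15e-12). Scarb2, a lysosomal membrane receptor, rose by 1.25 (adjusted p = 4.57e-10), and at 2 h it had a change of 0.34 (adjusted p = 0.470). Grn is the late-only gene on this list.

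The list of lipid transport and metabolism, which holds Abca1, Asah2 and Pla1a, had 17 of 26 others higher and 5 lower at 14 h, beside 26.2% and 26.3% of all genes, and 2 of 24 higher at 2 h, beside 5.25%. Apol9a and Apol9b rose by 10.15 and 10.01 at 14 h and by 6.25 and 6.27 at 2 h. Apod, an apolipoprotein just under the count minimum, rose by 3.91 (edgeR's adjusted p = 4.66e-09). Abcg1, which exports cholesterol like Abca1 and was chosen after its values were seen, rose by 1.34 (SE 0.29, edgeR's adjusted p = 0.00165) and had a change of -0.90 at 2 h (adjusted p = 0.488). Of 21 other neuronal vesicle and synapse genes, 11 were higher and 2 lower at 14 h (median 0.36), again beside 26.2% and 26.3%, and 3 of 21 were higher at 2 h, beside 5.25%. Hap1 rose by 3.21 (edgeR's adjusted p = 2.69e-11), Klc2, a light chain of kinesin, by 2.21 (adjusted p = 2.48e-11) and at 2 h by 0.60 (adjusted p = 0.0123), and Nefl, a neurofilament subunit, fell by 1.95 (adjusted p = 0.000112).

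The lists of secreted and surface proteins had calls at both times, beside the same shares of all genes, 26.2% higher and 26.3% lower at 14 h and 5.25% higher at 2 h. Of 21 other protease inhibitors, acute phase and matrix proteins, 17 were higher and 1 lower at 14 h, and 9 of 23 were higher at 2 h. Lgals9 rose by 10.80 at 14 h and 5.54 at 2 h, and Serping1 by 6.35 and 3.53. Of 28 other adhesion and surface receptors 18 were higher and 2 lower at 14 h, and 11 of 27 were higher at 2 h, among them Tnfsf10, at 9.73 and 6.29, and Cd274, at 5.20 and 6.62. A pair of relatives of the late-only receptors was chosen after the values were seen. Sdc4, of the same family as Sdc3, rose by 0.91 at 2 h (edgeR's adjusted p = 0.00058) and fell by 0.67 at 14 h (adjusted p = 1.56e-05). Mertk, a TAM receptor like Axl, rose by 0.70 at 14 h (edgeR's adjusted p = 0.000170) and had a change of -0.40 at 2 h (adjusted p = 0.429). For comparison, all 38 core antiviral genes were higher at 14 h and all 34 tested at 2 h, with medians of 9.09 and 6.04.

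The limits of the rule run through a continuous range. Just inside the 14 h limit were Myo16 (1.502), Olfml2b (1.51) and Gm5424 (1.53), and just outside Cbs (1.499), Il18 (1.45) and Col18a1 (1.44). At the 2 h limits Olfml2b (0.29), Slc2a12 (-0.28) and P2ry12 (-0.27) were inside, and Sp100 (0.31, with 7.30 at 14 h), Myh7 (-0.36) and Pacsin1 (-0.38) outside. Slc2a12, Il17rc and Pla1a, with means of 50.4 to 71.4 footprints, were just above the count minimum, and Apod, Ifitm7 and Ace, with 49.6 to 34.9, just below it. Leaving out 1 of the 16 footprint libraries gave between 26 and 38 genes, and 14 of the 33 were kept in all 16 such settings. They were Olfm1, Cnih2, Gimap8, Chga, Asah2, Nlgn2, Rarres2, Itm2b, Pttg1, Nmnat2, Trafd1, Sdc3, Grn and Cd248. Without both 2 h libraries of culture 3, 34 genes met the rule, 32 of them shared, and P2ry12 did not.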

How the data were processed

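Footprint and total RNA libraries of NSC cultures were analysed as raw counts per gene. Per the labels and the study's methods, the authors trimmed reads with Trim Galore 0.4.4, mapped them with Bowtie 0.12.7 to mm10, removed duplicates and counted reads with SummarizeOverlaps, taking footprints within the CDS and total RNA over the gene body. The deposited counts are whole numbers without normalization. The strand setting is not given in the sources used here. Duplicate removal and the narrow CDS window can lower counts of short or abundant genes. No column was left unassigned.

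The rule, the gene lists and the tests were chosen with earlier results of these data known, and the roles were assigned after the genes were found. Values in every library are given for the 12 genes with the largest 14 h ratio, the 12 with the most footprints, those called in total RNA and those on a gene list (at most 4 per list). Neighbours are the 3 nearest outside each limit, and other genes are those on the opposite strand or examples of a list.

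Each of the 4 comparisons was fitted with edgeR 4.0.16 in R 4.3.3 over every gene that reached 10 counts in 4 or more of its 8 libraries, with TMM scaling, a two-sided quasi-likelihood test and Benjamini-Hochberg adjustment, called at an adjusted p under 0.05. The procedure was tested on simulated data. Alternatives were DESeq2 1.42.0, RLE size factors, total counts alone, no filter, the culture number as a block and leaving out each library. The interaction of time and treatment, opposite genes without a shared exon and the values without culture 3 at 2 h were added after the data were seen. Footprints of same-numbered cultures correlated in their deviations from the group means (r from 0.19 to 0.42 at 14 h and from 0.33 to 0.81 at 2 h), so the numbers pair them. Total RNA libraries share these lysates and were paired by the same numbers, but their own deviations did not bear this out (r from -0.48 to 0.39). Positions and overlaps are from GENCODE M21 (GRCm38), promoters from RefSeq (GRCm38.p6). The other steps ran in Python 3.11.15, mainly with pandas 2.3.3.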

Additional observations from a re-analysis of the deposited data

Results flagged for a closer look

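In groups of 4 footprint libraries, Dixon's ratio of gap to range passed its critical value in 12 of 132 groups examined, of which chance flags about 1 in 20. Culture 3 at 2 h gave 7 of these values, 6 with IFN-β and 1 in control. With IFN-β it held 15.5 CPM of Islr (others 2.58 to 4.37), 24.4 CPM of Capn5 (10.8 to 13.0), 6.25 CPM of Slc2a12 (4.41 to 4.51), 77.5 CPM of Nlgn2 (43.0 to 48.5), 19.8 CPM of Emp2 (7.65 to 9.55) and, as the lowest, 18.8 CPM of Cd248 (31.97 to 34.5). In control it held 1121 CPM of Abca1 (269 to 414). The other libraries that stood apart were IFN-β culture 5 at 2 h for Chga (4.24 CPM, others 6.60 to 6.86), IFN-β culture 6 at 2 h for Nmnat2 (31.2 CPM, others 38.7 to 39.1), IFN-β culture 2 at 14 h for Emp2 (24.6 CPM, others 21.3 to 21.6), IFN-β culture 4 at 14 h for Grn (919.7 CPM, others 870.3 to 874) and control culture 4 at 14 h for Cd248 (40.3 CPM, others 34.1 to 34.8). At 14 h the groups of these genes did not overlap with or without that library.

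The response of Lrrc61 in total RNA, opposite Rarres2, differed between the times. Its log2 fold change at 14 h exceeded that at 2 h by 2.42 (adjusted p = 0.00482 for the interaction in edgeR), and all 4 IFN-β libraries lay above control at 14 h.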

How the results depend on the processing

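The number of genes that meet the rule was 33 with TMM-scaled counts (32 shared) and 33 with the median over same-numbered cultures as a replicate block (32 shared), 16 with a minimum of 200 counts, 79 with a 14 h limit of 1, 10 with a limit of 2, and 26 to 38 without 1 library. The late-only genes called in total RNA at 14 h were 4 with the replicate block, with Lynx1 added, 2 with total counts alone, without P2ry12, 5 without a filter on low counts, with Abca1 and Lynx1 added, and 1 to 4 without 1 library, with the lowest count without IFN-β culture 1, 3 or 4, where Sdc3 alone was called and Fyco1, under 10 counts in every control library, could not be tested. Their median log2 fold change at 14 h was 0.65 without a filter and -0.03 to 0.18 without 1 library. At 2 h no late-only gene was called in total RNA with total counts alone or with the replicate block, and 0 to 1 without 1 library, and the median was 0.30 with total counts alone and 0.08 to 0.27 without 1 library. With total counts alone the typical gene also shifted at 2 h, its median going from 0.04 to 0.23. The genes opposite late-only genes called at 14 h were 4 with total counts alone and 3 to 5 without 1 library, the lowest without control culture 4, and none was called at 2 h under any alternative run. In footprints 7 late-only genes were called at 2 h with the replicate block, against 0 without it and without any 1 library. At 14 h 31 to 33 were called without 1 library. The lowest count came without any 1 IFN-β library, where Islr and Pla1a, under 10 counts in every control library, could not be tested. The cause of the other shifts was not tested. The replicate block changed no other count by more than 1.5 times. Total RNA libraries share the lysates of the footprint libraries, and those of the same number correlated from -0.48 to 0.39 in their deviations from the group means. Few total RNA counts limit what could be tested, and 20 of the 33 had a mean under 10 at 14 h.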

Other observations

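Late-only genes lay near other genes that changed in a few places of the genome. Cnih2 and Cd248 are 22186 bp apart on chromosome 19, and Rarres2 and Gimap8 74445 bp apart on chromosome 6, each pair being late-only. Islr lies 13770 bp from Pml, which rose at both times, on chromosome 9, and P2ry12 lies 53864 bp from Igsf10 on chromosome 3. For the other 27 late-only genes the nearest late-only gene or gene at 1.5 or more at both times was at least 464204 bp away.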
